A study of Mus musculus with 48 samples.

Results

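The 10 matrix metallopeptidase (MMP) genes Mmp3, Mmp10, Mmp11, Mmp13, Mmp14, Mmp16, Mmp17, Mmp19, Mmp23 and Mmp28 were followed through the sorted stromal cells of mouse lymph nodes (LNs). They comprise stromelysins, a collagenase, membrane-bound MMPs and related secreted enzymes. They were picked by gene symbol from 19057 genes with a probe on an Illumina bead array. All 10 were among the 13353 genes that passed a filter on dim probes. Mmp10 passed through tumor FRCs alone, and Mmp16 through FRCs of tumor and naive mice alone. Each gene was read by the brightest of its probes, out of 21 member probes.

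Tumor mice had received 200000 to 400000 Eμ-Myc cells, a transplantable mouse B cell lymphoma driven by the Myc oncogene, by intravenous injection, and naive mice were wild type controls. The tumor load averaged 4 to 10% of LN lymphocytes. After depletion of CD45+ leukocytes, pooled skin-draining LNs were sorted into fibroblastic reticular cells (FRCs; CD31-gp38+), blood endothelial cells (BECs; CD31+gp38-), lymphatic endothelial cells (LECs; CD31+gp38+) and double-negative cells (DN; CD31-gp38-), which gave 8 groups with 3 replicates each and 2 array strips per replicate. Each array sample was a pool of 80 ng RNA from 4 to 6 sorts. The labels give neither strain nor age of these mice.

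MMPs are zinc-dependent peptidases that cut collagens, proteoglycans, laminins and cell surface proteins. Most are made as inactive proenzymes, are activated by other peptidases such as plasmin, furin or another MMP, and are held in check by tissue inhibitors of metallopeptidases (Timps). In LNs, FRCs build and wrap the collagen fibers of the conduit network, and this matrix is remodeled whenever the organ expands.

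Values are log2 signals of the array after quantile normalization, averaged over the strips of a replicate. A replicate above 5.57 counted as above background, a level set 3 robust SDs over the mode of the dim probes. Between 863780 and 1044181 beads were read per strip, and the median code had 18 to 22 beads, and replicates of a group correlated at 0.926 to 0.994 over genes. The sorted cells carried the markers of their gates, with Pdpn (gp38) high in FRCs and LECs, Pecam1 (CD31) high in BECs and LECs, and Lyve1 and Prox1 high in LECs. Pdpn was above background in every replicate of the gp38- gates too. It had 10.39, 11.10 and 12.38 in tumor DN cells, against 10.56, 13.43 and 9.75 in naive DN cells, and 8.12, 11.51 and 10.20 in tumor BECs, against 8.58, 9.18 and 8.68 in naive BECs. DN naive replicate 2 and BEC tumor replicate 2 were the highest of their groups. Among naive DN cells, replicate 2 also had the highest log2 of the summed signal of fibroblast markers, 16.96 beside 15.41 and 15.19. The same held for LEC markers, 15.49 beside 12.43 and 12.80, and myeloid markers, 13.64 beside 11.16 and 11.39. The fibroblast and LEC lists both include Pdpn and Ccl21a. In DN cells 6 of 10 BEC markers, 4 of 7 leukocyte markers and 4 of 6 B cell markers were higher in tumor than in naive mice. Over all genes 4.7% were higher there. Ptprc (CD45) lay above background in 1 of 24 replicates. Each cell type was run on a slide of its own with tumor and naive samples at different places, so that slide and cell type, and place and tumor state, cannot be told apart. The labels do not say whether replicates came from separate animals, and p-values therefore measure the spread between these samples. In sorted bulk RNA, fewer cells of a kind and less RNA per cell cannot be told apart.

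Promoter windows, 250 bases before to 50 bases after the annotated start, were at hand for 7 of the 10 genes (RefSeq, GRCm38.p6), namely Mmp3, Mmp10, Mmp11, Mmp13, Mmp14, Mmp23 and Mmp28. The windows of Mmp13, Mmp3 and Mmp10 are shown because these genes lie in 1 cluster on chromosome 9 and yet had different patterns in the sorted cells. They lie at chr9:7272264-7272563, chr9:7445572-7445871 and chr9:7502092-7502391, all on the plus strand. Capitals mark the AP-1 motif TGANTCA and the TATA motif TATAAA, both searched on both strands.

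Mmp13: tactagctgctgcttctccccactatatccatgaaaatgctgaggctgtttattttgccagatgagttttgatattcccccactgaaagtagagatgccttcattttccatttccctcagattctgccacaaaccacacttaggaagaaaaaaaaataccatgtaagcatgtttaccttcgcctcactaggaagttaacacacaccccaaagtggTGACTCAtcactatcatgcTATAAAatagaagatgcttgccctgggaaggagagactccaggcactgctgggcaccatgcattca
Mmp3: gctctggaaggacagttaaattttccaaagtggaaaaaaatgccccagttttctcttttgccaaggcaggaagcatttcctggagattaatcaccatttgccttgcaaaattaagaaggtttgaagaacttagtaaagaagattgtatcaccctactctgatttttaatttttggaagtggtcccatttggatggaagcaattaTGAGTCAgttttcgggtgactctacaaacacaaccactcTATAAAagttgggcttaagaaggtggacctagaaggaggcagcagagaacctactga
Mmp10: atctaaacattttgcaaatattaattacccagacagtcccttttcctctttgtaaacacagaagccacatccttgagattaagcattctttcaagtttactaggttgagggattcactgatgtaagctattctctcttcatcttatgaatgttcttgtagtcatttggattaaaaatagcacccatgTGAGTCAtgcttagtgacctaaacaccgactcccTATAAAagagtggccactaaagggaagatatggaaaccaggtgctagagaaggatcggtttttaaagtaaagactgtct

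Relative to the annotated start, the AP-1 motif began at -35 in Mmp13, -46 in Mmp3 and -63 in Mmp10, and TATAAA began at -16, -7 and -29. Of all 32851 promoter windows, 7.8% held TGANTCA and 13.6% held TATAAA. No TGANTCA was found in the windows of Mmp11, Mmp14, Mmp23 (with 2 annotated starts) and Mmp28. These windows were richer in G and C, with 56.0 to 67.0% against 40.0% in Mmp3, 37.7% in Mmp10 and 43.7% in Mmp13, and the median of all windows was 52.7%. The GC box GGGCGG, present in 35.7% of all windows, occurred 4 times in Mmp11, 2 times in Mmp14, 2 times in the first window of Mmp23 and 3 times in Mmp28. The ETS motif AGGAAG, present in 35.4% of all windows, occurred once in Mmp3, 2 times in Mmp13 and once in Mmp14. These matches describe letters and were not tested for binding.

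Among the stromal cells of naive mice, Mmp3, Mmp11, Mmp14, Mmp16 and Mmp23 had their highest mean in FRCs and Mmp13 had its highest mean in LECs. With lymphoma, Mmp13 fell in LECs and Mmp16 fell in FRCs, and the change of Mmp13 differed between FRCs and LECs. No other member passed the test between tumor and naive mice in any of the 4 cell types. The differences were tested with limma over all 13353 genes, with Benjamini-Hochberg adjustment and a threshold of 0.05.

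In FRCs 0 of 10 members were higher and 1 was lower in tumor mice, where 6.29% of all genes were higher and 4.05% were lower. In BECs it was 0 and 0, against 3.53% and 1.46% of all genes. In LECs it was 0 and 1, against 0.764% and 0.135%, and in DN cells 0 and 0, against 4.7% and 2.55%. At an unadjusted p under 0.05, limma gave 3 members in FRCs, 3 in BECs, 1 in LECs and 2 in DN cells, where it gave 25.3%, 19.8%, 8.74% and 23.1% of all genes. The median member change on the log2 scale was 0.25 in FRCs, 0.12 in BECs, 0.17 in LECs and -0.11 in DN cells, beside medians of -0.02, -0.04, 0 and -0.07 over all genes.

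The replicates of tumor and naive mice did not overlap for 5 members in FRCs (Mmp13 and Mmp23 above, Mmp14, Mmp16 and Mmp17 below), 2 in BECs (Mmp3 and Mmp14 above), 3 in LECs (Mmp23 and Mmp28 above, Mmp13 below) and 1 in DN cells (Mmp11 above). Over all genes this was so for 39.1%, 25.7%, 20.4% and 15.9%. With 3 against 3 replicates a two-sided exact permutation test cannot give a p under 0.1, and it gave 0.1 for each of these.

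**Figure D1:**
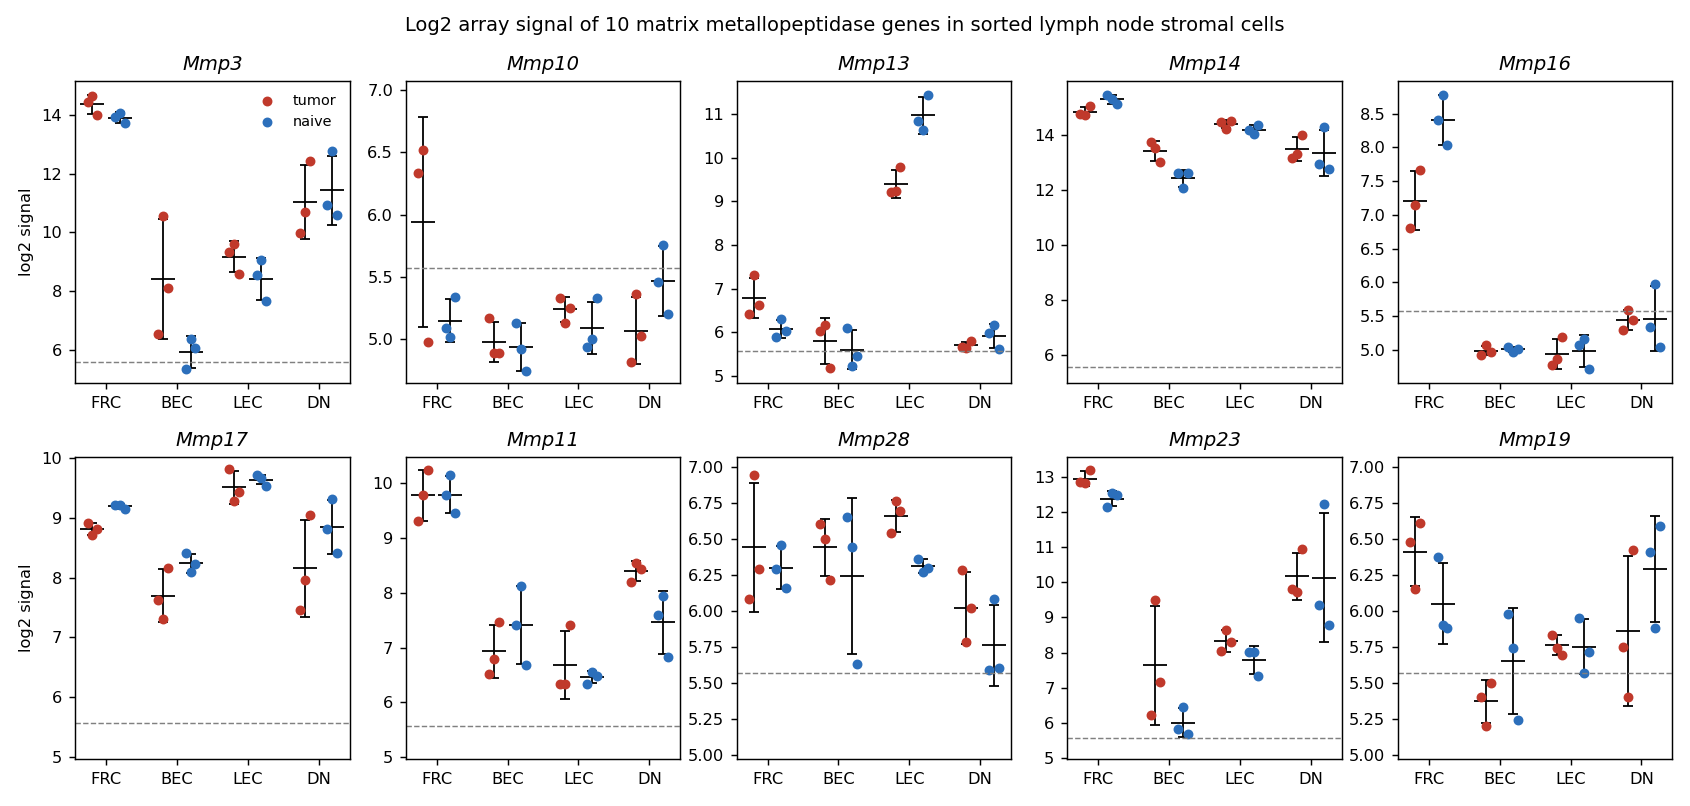
Log2 signal of the 10 MMP genes in FRCs, BECs, LECs and DN cells (horizontal axis), each with tumor replicates left (red) and naive replicates right (blue); each gene has a vertical axis of its own, lines give the mean and bars the SD (n = 3), and the dashed line is the background level of 5.57. Mmp13 stands high in LECs and is lower there in tumor mice, and Mmp16 lies above background in FRCs and is lower there in tumor mice.

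**Figure D2:**
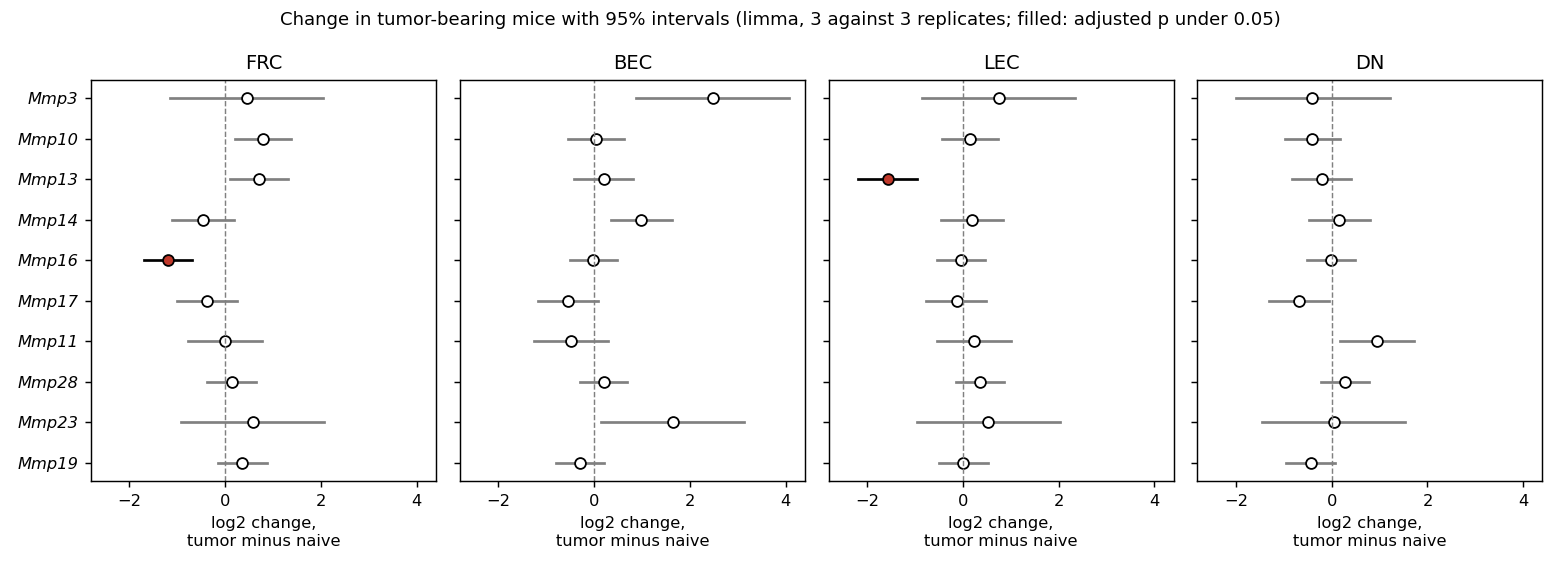
Tumor minus naive change on the log2 scale (horizontal axis) of each MMP gene (rows) in FRCs, BECs, LECs and DN cells (panels), with 95% intervals from limma; filled points have an adjusted p under 0.05. The filled points are Mmp16 in FRCs at -1.20 and Mmp13 in LECs at -1.57.

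Between the naive cell types, 6 of 10 members were higher in FRCs than in BECs, where 40.6% of all genes differed in either direction. In FRCs against LECs 5 were higher and 1, Mmp13, was lower (33.4% of all genes), and in FRCs against DN cells 5 were higher (38.2%). Mmp16, which passed the filter through FRCs alone, was among the higher members in all FRC comparisons. In DN cells 4 were higher than in BECs (51.7%), and against LECs 3 were higher and 3 lower (44.6%). In LECs against BECs 4 were higher (21.9%). Of these 31 member calls by limma, 21 held under every alternative run. The other 10 were Mmp3 in FRCs against DN cells and in LECs against BECs, Mmp11 in DN cells against LECs, Mmp14 and Mmp17 in DN cells against LECs, Mmp14 and Mmp19 in DN cells against BECs, Mmp17 in FRCs against BECs, and Mmp23 in FRCs against DN cells and in DN cells against LECs. Each of these 10 was lost on leaving out at least 1 library, with limma adjusted p between 0.051 and 0.19.

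**Figure D3:**
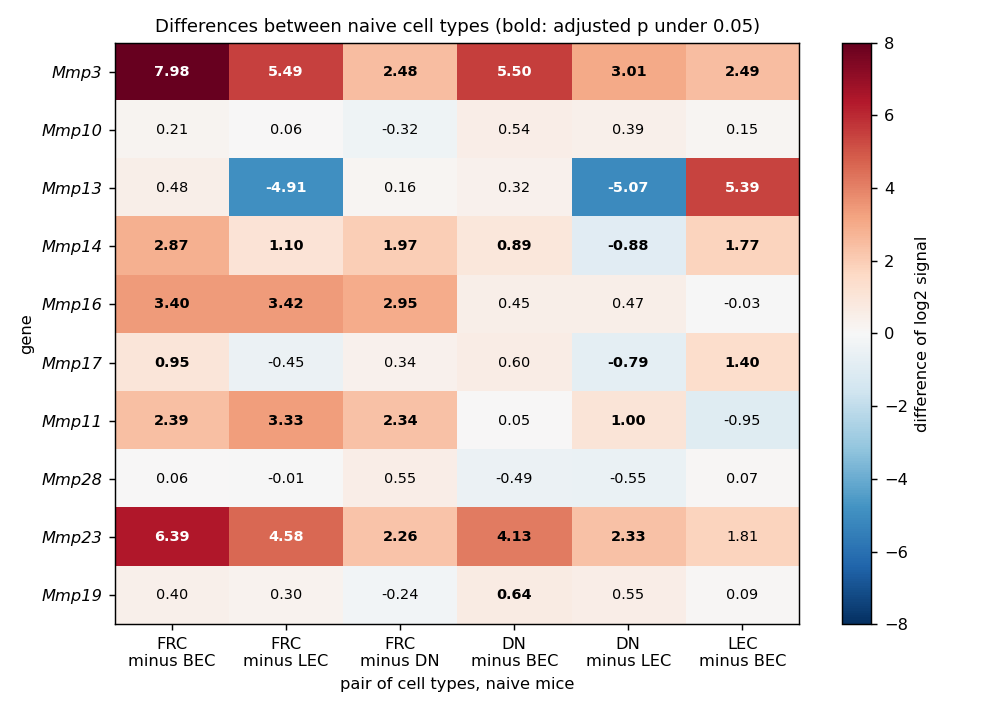
Differences of log2 signal between naive cell types (columns, first-named minus second-named) for each MMP gene (rows), colored on a scale symmetric around 0; bold values have an adjusted p under 0.05 in limma. Mmp3 and Mmp23 have their largest differences in FRCs against BECs, 7.98 and 6.39, and Mmp13 has its largest ones in pairs with LECs, -4.91, -5.07 and 5.39.

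Stromelysins cut proteoglycans, laminin and other matrix proteins and can activate other proenzymes. Mmp3, which activates several of them, had FRC signals of 14.42, 14.64 and 13.99 in tumor mice, against 13.92, 14.07 and 13.72 in naive mice. The 2 sets overlapped and the change was 0.45 ± 0.77 (SE, limma, adjusted p = 0.79). In naive cells the order was FRCs (13.90 ± 0.18), DN cells (11.43 ± 1.18), LECs (8.42 ± 0.72) and BECs (5.93 ± 0.54; SD, n = 3 each), and no neighbors in this order overlapped. The FRC level was 252-fold that of BECs, a log2 difference of 7.98 ± 0.77 (SE, limma, adjusted p = 6.5e-08). The limma adjusted p of FRCs against DN cells was 0.016 and became 0.067 without DN naive replicate 1 and 0.079 without DN naive replicate 3. That of LECs against BECs was 0.023 and lay between 0.054 and 0.097 without BEC naive replicate 1 or 3 or LEC naive replicate 1 or 2.

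In BECs Mmp3 had signals of 6.55, 10.57 and 8.10 in tumor mice, against 5.33, 6.38 and 6.07 in naive mice. All 3 tumor values lay above the naive ones, and tumor replicate 2 stood apart. The change was 2.48 ± 0.77 (SE, limma, adjusted p = 0.067), 5.58-fold with a 95% interval of 0.88 to 4.08 on the log2 scale, and it did not pass the test. It passed without BEC tumor replicate 1 (3.41, adjusted p = 0.021 by limma), and with the same change of 2.48 and an adjusted p of 0.042 by limma without DN tumor replicate 3 or without DN naive replicate 2, which change the shared estimate of the spread. Of the 2 other Mmp3 probes, tested by limma over 21784 single probes, 1 changed by 3.22 (adjusted p = 0.019) and the other by 2.05 (adjusted p = 0.12).

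In LECs Mmp3 had 9.32, 9.59 and 8.59 in tumor mice, against 8.53, 9.07 and 7.65 in naive mice, and in DN cells 9.97, 10.70 and 12.43, against 10.93, 12.77 and 10.58. Both pairs of groups overlapped, with changes of 0.75 (adjusted p = 0.95) and -0.40 (adjusted p = 0.81) in limma.

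Mmp3 ran with Pdgfra, a receptor that marks fibroblasts. In BECs Pdgfra had 6.82, 10.39 and 9.16 in tumor mice, against 7.09, 8.19 and 6.85 in naive mice, so that tumor replicate 2 was highest for both genes. Over 24 replicates the correlation of Mmp3 with Pdgfra was 0.98, over the 18 replicates without FRCs it was 0.97, and over the 6 BEC replicates it was 0.92. These are descriptions over arrays that share groups and normalization. Of the 11 fibroblast markers 0 passed the test in BECs, with a median change of 1.13. The log2 of their summed signal ranged from 13.90 to 15.87 in tumor BECs and from 15.11 to 15.87 in naive BECs. The list includes Ccl21a, which averaged 14.46 in tumor BECs and 15.30 in naive BECs and weighed heavily in this sum. Markers of leukocytes also stood high in BEC tumor replicate 2. The log2 of their summed signal was 14.37, 15.38 and 12.76 in tumor BECs, against 12.95, 12.90 and 12.72 in naive BECs, and that of myeloid markers was 11.60, 14.06 and 11.01 in tumor BECs, against 10.80, 11.18 and 10.99 in naive BECs. Neither list had a gene past the test in BECs. The part of fibroblast, leukocyte and myeloid RNA in the BEC values was not tested.

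**Figure D4:**
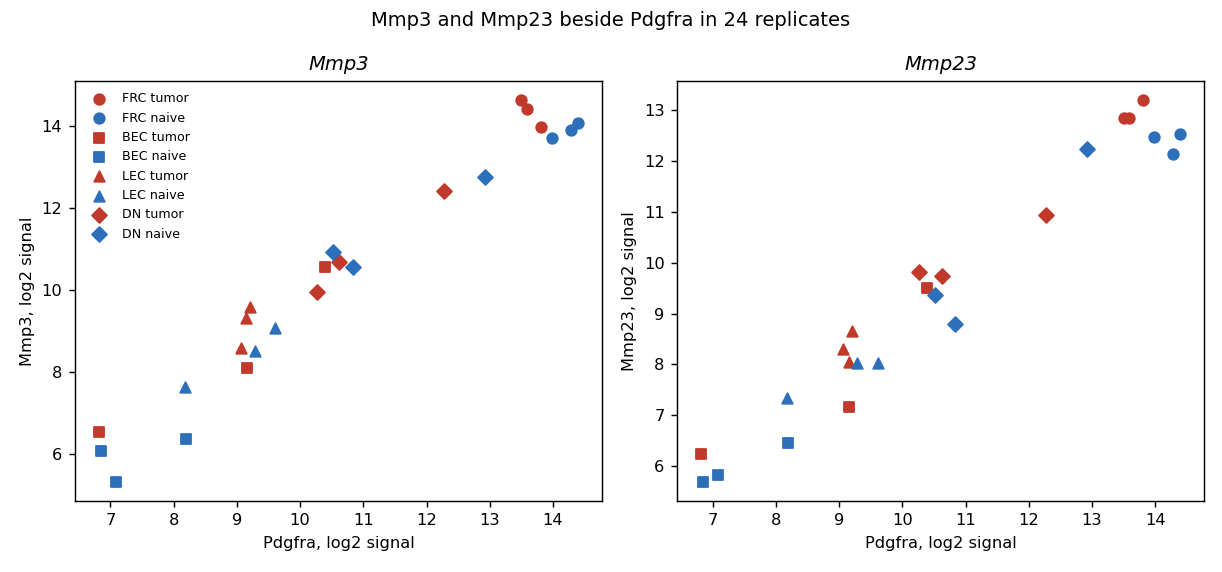
Log2 signal of Mmp3 (left) and Mmp23 (right) against that of Pdgfra in each of 24 replicates; symbols give the cell type, red tumor and blue naive. Both genes run along Pdgfra from BECs at the low end to FRCs at the high end, with correlations of 0.98 and 0.98.

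Mmp10, the other stromelysin, stood near background in most cells. In FRCs it had 6.33, 6.52 and 4.98 in tumor mice, against 5.09, 5.02 and 5.34 in naive mice. The first 2 tumor replicates lay above background and the third lay below every naive value, and all naive FRCs were not well above background. The change was 0.79 ± 0.28 (SE, limma, adjusted p = 0.076), at least 1.29-fold against the background level. Without FRC tumor replicate 3, the low one of the group through which the gene entered the test, the change was 1.27 and was called by limma, and this value is a description. Of the other 18 replicates, DN naive replicate 2 was the only one above background, at 5.76.

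Mmp13, the collagenase of the group, cuts fibrillar collagens. In LECs it had 9.21, 9.24 and 9.78 in tumor mice, against 10.85, 10.64 and 11.45 in naive mice. All 3 tumor values lay below the lowest naive value. The change was -1.57 ± 0.29 (SE, limma, adjusted p = 0.0095), a level 2.96-fold lower in tumor LECs with a 95% interval of -2.18 to -0.96 on the log2 scale. The call was lost without LEC tumor replicate 2 (-1.48, limma adjusted p = 0.086) and without LEC naive replicate 3 (-1.33, limma adjusted p = 0.068). The main fit did not pair replicates by number, and the call held in a fit with a replicate block.

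Mmp13 was highest in LECs among naive cells. The LEC mean of 10.98 ± 0.42 (SD, n = 3) stood against 6.07 ± 0.21 in FRCs, 5.91 ± 0.28 in DN cells and 5.59 ± 0.45 in BECs, and the last 3 overlapped one another. The LEC level was 41.9-fold that of BECs (difference 5.39 ± 0.29, SE, limma, adjusted p = 2.4e-10). FRCs differed from LECs by -4.91 and DN cells from LECs by -5.07 on the log2 scale, and both passed the limma test under every alternative run. In BECs Mmp13 had 6.02, 6.17 and 5.18 in tumor mice, against 6.09, 5.23 and 5.45 in naive mice, and in DN cells 5.66, 5.64 and 5.79, against 5.97, 6.16 and 5.61. Neither pair was separated.

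In FRCs Mmp13 had 6.42, 7.30 and 6.63 in tumor mice, against 5.88, 6.30 and 6.03 in naive mice. The groups did not overlap, and the change of 0.71 ± 0.29 (SE, limma, adjusted p = 0.13) did not pass the test. Lyve1 had 9.18, 8.10 and 8.15 in tumor FRCs, against 5.87, 4.99 and 8.68 in naive FRCs. Prox1 had 6.77, 6.22 and 5.83, against 5.77, 5.47 and 7.53. Of 8 LEC markers 0 passed the test in FRCs, with a median change of 0.03. The part of LEC RNA in the FRC values was not tested. The Mmp13 change in FRCs minus that in LECs was 2.28 ± 0.41 (SE, limma interaction test, adjusted p = 0.0093), with a 95% interval of 1.42 to 3.14. In that comparison 0.607% of all genes passed, and Mmp13 was the 1 member that did. For the change in DN cells minus that in LECs the value was 1.35 (adjusted p = 0.23, 0.255% of all genes called), and for LECs minus BECs -1.77 (adjusted p = 0.35, 0.00749% called), both by limma. Without BEC tumor replicate 3, the value for LECs minus BECs was -2.07 and passed (limma, adjusted p = 0.031).

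Of the 2 other Mmp13 probes, 1 ran the same way in LECs, with a mean of 5.32 ± 0.20 in tumor LECs, not well above background, against 6.33 ± 0.40 in naive LECs (SD, n = 3; change -1.01, limma over 21784 probes, adjusted p = 0.03). The other was dim throughout, with 5.78 ± 0.13 in tumor LECs and 5.61 ± 0.05 in naive LECs (change 0.18, limma, adjusted p = 0.97). This dim probe went against the brightest one in naive DN cells minus LECs, at 0.66 (limma, adjusted p = 0.024). In FRCs the first of these probes changed by 0.07 and the dim one by 0.01 (limma, adjusted p = 0.9 and 0.98). Neither passed the test of the change in FRCs minus that in LECs.

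Markers of LECs were read in the same samples. Prox1, the transcription factor that sets LEC identity, had 12.80, 12.61 and 12.77 in tumor LECs, against 13.20, 13.23 and 13.37 in naive LECs. All 3 tumor values lay below the naive ones, where 20.4% of all genes did not overlap in either direction. Lyve1, a hyaluronan receptor, averaged 14.25 in tumor LECs and 14.29 in naive LECs. Of 8 LEC markers 0 passed the test, with a median change of -0.07. The log2 of their summed signal ranged from 16.70 to 16.98 in tumor LECs and from 16.79 to 16.86 in naive LECs. This list includes Pdpn and Ccl21a, which were high in FRCs too. In the same LECs 2 of 6 pancreatic enzyme genes, Ctrb1 and Cela3b, were higher in tumor mice, where 0.764% of all genes were higher. The median change of the list was 3.96, beside 0 over all genes. The log2 of its summed signal was 17.01, 16.31 and 15.89 in tumor LECs, against 15.40, 15.95 and 15.92 in naive LECs. The part of LEC markers and pancreatic enzymes in the Mmp13 result was not tested.

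Membrane-type MMPs are held at the cell surface. Mmp14, a transmembrane collagenase that also activates pro-Mmp2, ranged from 12.09 to 15.48 over the 24 replicates. In FRCs it had 14.77, 14.73 and 15.05 in tumor mice, against 15.48, 15.31 and 15.15 in naive mice, and in BECs 13.75, 13.52 and 13.02, against 12.61, 12.09 and 12.63. The groups were separated in both cell types, with tumor values lower in FRCs and higher in BECs. The changes were -0.46 ± 0.31 in FRCs (SE, limma, adjusted p = 0.38) and 0.99 ± 0.31 in BECs (SE, limma, adjusted p = 0.07), and neither passed the test. Their difference, FRCs minus BECs, was -1.45 ± 0.43 (SE, limma interaction test, adjusted p = 0.14), where 0.906% of all genes were called. The BEC change passed without BEC tumor replicate 3 (1.19, limma adjusted p = 0.029), DN tumor replicate 3 (adjusted p = 0.047 by limma) or DN naive replicate 2 (adjusted p = 0.0097 by limma). Without DN naive replicate 2, the difference between FRCs and BECs also passed (limma, adjusted p = 0.018). A second Mmp14 probe, at or near background in all groups, changed by 0.48 in BECs (limma, adjusted p = 0.12). In the same BECs the log2 of the summed signal of pericyte and smooth muscle markers ranged from 14.74 to 15.18 in tumor mice and from 13.57 to 14.49 in naive mice, with Acta2 the 1 of 10 that passed. B cell markers summed to 12.94, 13.74 and 11.11 in tumor BECs, against at most 11.33 in naive BECs, and 1 of 6 passed, the B cell precursor gene Vpreb3 with a change of 4.59 (limma, adjusted p = 0.0085). B cell and leukocyte sums were lowest in tumor replicate 3, as Mmp14 was, and highest in replicate 2, where Mmp14 was not. The part of these markers in the Mmp14 values was not tested.

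In LECs Mmp14 had 14.49, 14.22 and 14.52 in tumor mice, against 14.21, 14.05 and 14.38 in naive mice, and in DN cells 13.19, 13.32 and 14.00, against 12.95, 14.30 and 12.76. Both overlapped. In naive cells the order was FRCs (15.31 ± 0.17), LECs (14.21 ± 0.17), DN cells (13.34 ± 0.84) and BECs (12.44 ± 0.31; SD, n = 3 each), with overlap between LECs and DN cells. FRCs were 7.31-fold above BECs (2.87 ± 0.31, SE, limma, adjusted p = 2.7e-07) and 2.14-fold above LECs (1.10 ± 0.31, SE, limma, adjusted p = 0.0085). DN cells differed from BECs by 0.89 and from LECs by -0.88 (limma, adjusted p = 0.02 and 0.027). The first was lost without BEC naive replicate 2 or DN naive replicate 2, with an adjusted p of 0.091 to 0.16, and the second without LEC naive replicate 1 or 3 or DN naive replicate 1 or 3, with an adjusted p of 0.058 to 0.16, all by limma.

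Mmp16, a transmembrane MMP that can also activate pro-Mmp2, was above background in FRCs and nearly nowhere else. In FRCs it had 6.80, 7.15 and 7.67 in tumor mice, against 8.41, 8.78 and 8.03 in naive mice. All 3 tumor values lay below the naive ones. The change was -1.20 ± 0.24 (SE, limma, adjusted p = 0.0033), a level 2.3-fold lower in tumor FRCs with a 95% interval of -1.70 to -0.70, and it passed with each library left out in turn. A second Mmp16 probe averaged 6.33 ± 0.25 in tumor FRCs and 7.31 ± 0.47 in naive FRCs (SD, n = 3; change -0.98, limma over 21784 probes, adjusted p = 0.0048). The remaining Mmp16 probe had no group mean above background, with 4.79 ± 0.10 in tumor FRCs and 4.89 ± 0.09 in naive FRCs (SD, n = 3).

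Mmp16 was not well above background in all 12 replicates of BECs and LECs, and above background in 1 of 3 DN replicates of tumor mice and 1 of 3 of naive mice. Naive FRCs were at least 7.14-fold above naive BECs (limma, adjusted p = 1.1e-09) and at least 7.14-fold above naive LECs (limma, adjusted p = 1.2e-09). The naive DN mean of 5.46 also lay below the background level, and naive FRCs were at least 7.14-fold above that level (limma, difference from DN cells 2.95, adjusted p = 4e-08). Mmp16 passed the filter on dim probes through FRCs alone, so its higher level in FRCs is a description. The changes in FRCs minus those in BECs, LECs and DN cells were -1.18, -1.16 and -1.19, with adjusted p of 0.11, 0.14 and 0.092 by limma. None passed, and in FRCs minus DN cells 1.21% of all genes were called. Without FRC tumor replicate 3 they were -1.42, -1.39 and -1.42 and all passed, with adjusted p of 0.041, 0.039 and 0.032 by limma. Without DN naive replicate 2 they were -1.18, -1.16 and -1.45, with adjusted p of 0.04, 0.05 and 0.014 by limma, and were called.

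Other markers moved in the same FRCs. Of 10 pericyte and smooth muscle markers 3 were higher in tumor FRCs, where 6.29% of all genes were higher. These were the adhesion molecule Mcam by 3.22, the actin-binding protein gene Tagln by 1.87 and the intermediate filament gene Des by 1.92 on the log2 scale. The log2 of the summed signal of this list ranged from 16.16 to 16.47 in tumor FRCs and from 15.85 to 16.22 in naive FRCs. Itga7, a defining marker of this list, averaged 5.74 in tumor FRCs and 6.05 in naive FRCs. Of 11 fibroblast markers 0 passed the test, with a median change of -0.59 and summed signals of 17.35 to 17.96 in tumor FRCs and 17.63 to 17.84 in naive FRCs. Of 10 myeloid markers, Csf1r and Cd14 were higher, and the log2 of their summed signal ranged from 11.38 to 12.17 in tumor FRCs and from 10.08 to 10.65 in naive FRCs. The part of these markers in the Mmp16 result was not tested.

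Mmp17 is tied to the membrane by a glycolipid anchor. In FRCs it had 8.91, 8.72 and 8.82 in tumor mice, against 9.21, 9.22 and 9.14 in naive mice, and in BECs 7.62, 7.31 and 8.17, against 8.41, 8.09 and 8.23. Tumor FRCs lay below naive FRCs without overlap, and BECs overlapped. In LECs it had 9.81, 9.28 and 9.43 in tumor mice, against 9.71, 9.66 and 9.54 in naive mice, and in DN cells 7.46, 7.96 and 9.05, against 8.81, 9.31 and 8.42. The change was below 0 in all 4 cell types (-0.37, -0.54, -0.13 and -0.69 in FRCs, BECs, LECs and DN cells), and none passed the test in limma (adjusted p = 0.49, 0.33, 1 and 0.17). Without DN tumor replicate 3, which was the highest of its group, the DN change was -1.13 (limma, adjusted p = 0.0043). The DN tumor replicates kept there had more leukocyte and B cell signal. The summed leukocyte markers had a log2 of 15.97, 15.52 and 13.09 in tumor DN cells, against 12.64, 12.53 and 12.37 in naive DN cells, and the B cell markers 14.50, 13.93 and 11.56 in tumor DN cells, against 10.01, 11.09 and 10.12 in naive DN cells. Mmp17 was lower in the tumor replicates with the higher sums, and their part in the DN values was not tested.

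Among naive cells Mmp17 was highest in LECs (9.64 ± 0.08), then FRCs (9.19 ± 0.05), DN cells (8.85 ± 0.45) and BECs (8.24 ± 0.16; SD, n = 3 each), and FRCs and DN cells overlapped. LECs were 2.63-fold above BECs (1.40 ± 0.30, SE, limma, adjusted p = 0.0018), which held under every alternative run. FRCs were 0.95 above BECs on the log2 scale (limma, adjusted p = 0.016), and 0.87 above them without BEC naive replicate 2 (limma, adjusted p = 0.053). DN cells differed from LECs by -0.79 (limma, adjusted p = 0.038), a call lost on leaving out any of the 3 LEC naive replicates or DN naive replicate 1 or 3.

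Mmp11 and Mmp28 are secreted enzymes whose proforms are cut by furin inside the cell. Mmp11 had 9.31, 9.79 and 10.25 in tumor FRCs, against 9.78, 10.15 and 9.46 in naive FRCs, with means that differed by 0.01. In DN cells it had 8.20, 8.55 and 8.44 in tumor mice, against 7.59, 7.95 and 6.83 in naive mice. The DN groups did not overlap, and the change of 0.94 ± 0.37 (SE, limma, adjusted p = 0.13) did not pass the test. In the same DN cells the log2 of the summed signal of BEC markers ranged from 15.12 to 15.18 in tumor mice and from 13.37 to 14.46 in naive mice, and that of B cell markers from 11.56 to 14.50 in tumor mice and from 10.01 to 11.09 in naive mice, and their part in the Mmp11 values was not tested. The change in DN cells minus that in BECs was 1.42 (limma, adjusted p = 0.34, 0.427% of all genes called). The BEC values were 6.52, 6.80 and 7.46 in tumor mice, against 7.41, 8.12 and 6.69 in naive mice. The LEC values were 6.33, 6.34 and 7.41 in tumor mice, against 6.34, 6.55 and 6.48 in naive mice, and both pairs overlapped.

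Among naive cells Mmp11 was highest in FRCs, 5.24-fold above BECs (2.39 ± 0.37, SE, limma, adjusted p = 2.6e-05), 5.05-fold above DN cells (2.34 ± 0.37, SE, limma, adjusted p = 7.9e-05) and 10.1-fold above LECs (3.33 ± 0.37, SE, limma, adjusted p = 5.5e-07). Means of DN cells (7.46 ± 0.58) and BECs (7.41 ± 0.71) overlapped within their SD (n = 3 each). DN cells were 1.00 above LECs (6.46 ± 0.11) on the log2 scale (limma, adjusted p = 0.034), a call lost without any of the 3 LEC naive replicates or without DN naive replicate 1 or 2.

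Mmp28 ranged from 5.59 to 6.94 over the 24 replicates by its brightest probe. Its other probes had no group mean above background, with highest means of 5.46, 5.40 and 5.15. In LECs it had 6.54, 6.76 and 6.69 in tumor mice, against 6.36, 6.27 and 6.30 in naive mice, without overlap, and the change of 0.35 ± 0.24 (SE, limma, adjusted p = 0.8) did not pass the test. Changes in FRCs, BECs and DN cells were 0.14, 0.20 and 0.27. Group means in naive mice were 6.31 in LECs, 6.30 in FRCs, 6.24 in BECs and 5.76 in DN cells, and no pair of naive cell types passed the test in limma.

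Mmp23 is an MMP with a transmembrane anchor at its amino end that is cleaved off during maturation. In FRCs it had 12.85, 12.84 and 13.20 in tumor mice, against 12.14, 12.54 and 12.48 in naive mice, and in LECs 8.04, 8.65 and 8.31, against 8.03, 8.03 and 7.34. Tumor values lay above naive ones without overlap in both cell types. The changes of 0.58 ± 0.71 in FRCs and 0.53 ± 0.71 in LECs (SE, limma, adjusted p = 0.69 and 0.98) did not pass the test. In BECs it had 6.23, 9.51 and 7.17 in tumor mice, against 5.83, 6.46 and 5.69 in naive mice, and in DN cells 9.82, 9.74 and 10.94, against 9.36, 12.23 and 8.79. Both overlapped, with changes of 1.64 (adjusted p = 0.2) and 0.04 (adjusted p = 0.98) in limma.

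The pattern of Mmp23 over the cells ran with that of Mmp3. Their correlation was 0.99 over 24 replicates and 0.87 after the group means were taken out, and BEC tumor replicate 2 and DN naive replicate 2 were the highest of their groups for both genes and for Pdgfra. With Pdgfra, Mmp23 correlated at 0.98 over all 24 replicates and at 0.93 over the 6 BEC replicates. Naive FRCs were 84-fold above BECs for Mmp23 (6.39 ± 0.71, SE, limma, adjusted p = 4.7e-07), 24-fold above LECs (4.58 ± 0.71, SE, limma, adjusted p = 3.8e-05) and 4.78-fold above DN cells (2.26 ± 0.71, SE, limma, adjusted p = 0.018). Naive FRCs and DN cells overlapped, with DN naive replicate 2 at 12.23 and FRC naive replicate 1 at 12.14. The call against DN cells was lost without FRC naive replicate 2 (adjusted p = 0.051 by limma) and without DN naive replicate 1 or 3 (adjusted p = 0.091 and 0.12 by limma). Naive DN cells were 4.13 above BECs (limma, adjusted p = 8.4e-05) and 2.33 above LECs (limma, adjusted p = 0.012) on the log2 scale, and the second was lost without LEC naive replicate 3 (limma, adjusted p = 0.051) or DN naive replicate 2 (1.27, limma, adjusted p = 0.085).

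Mmp19, a secreted enzyme that cuts basement membrane proteins, ranged from 5.20 to 6.61 over the 24 replicates. In FRCs it had 6.48, 6.15 and 6.61 in tumor mice, against 6.37, 5.90 and 5.88 in naive mice. The changes were 0.36, -0.29, 0.01 and -0.44 in FRCs, BECs, LECs and DN cells, and none passed the test in limma. Naive DN cells were 0.64 above BECs on the log2 scale (limma, adjusted p = 0.035), and the call was lost without BEC naive replicate 2 or 3 or DN naive replicate 1 or 3 (adjusted p of 0.053 to 0.19 by limma). Without DN tumor replicate 3 the DN change was -0.72 (limma, adjusted p = 0.046), again with the DN tumor replicates of the higher leukocyte sums.

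Around these enzymes, 5 of 13 other MMP genes were tested, and 1 passed. Mmp9, a gelatinase that cuts basement membrane collagen, rose in FRCs by 3.35 on the log2 scale, with a mean of 11.25 ± 0.58 in tumor mice and 7.90 ± 0.99 in naive mice (SD, n = 3; limma, adjusted p = 0.004). Of 5 tested inhibitors, Timp1 rose in BECs by 1.15 (limma, adjusted p = 0.048), and no inhibitor passed in the other cell types. The other 4 had BEC changes below 0, with -1.50 for Timp4, -0.60 for Timp2, -0.59 for Timp3 and -0.28 for the membrane-anchored inhibitor gene Reck, none past the test. The median of the list in BECs was -0.59 beside -0.04 over all genes, and the log2 of its summed signal ranged from 14.38 to 14.85 in tumor BECs and from 14.93 to 15.22 in naive BECs, without overlap. Of 10 tested genes for activation of proenzymes, Serpinb2, which inhibits plasminogen activators, rose in FRCs by 2.10 (limma, adjusted p = 0.0029), and none passed elsewhere.

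Of 16 tested genes for AP-1 and ETS transcription factors, which bind many MMP promoters, 3 were lower in tumor FRCs. There 4.05% of all genes were lower. Fosb fell by 1.59, Atf3 by 1.02 and Fos by 0.71 on the log2 scale (limma, adjusted p = 0.0024, 0.019 and 0.0082). In BECs 1 was higher and 1 lower, with Etv4 at 8.40 ± 0.68 in tumor mice against 5.40 ± 0.21 in naive mice (SD, n = 3; limma, adjusted p = 0.00088), and Fosb fell by 1.17 (limma, adjusted p = 0.028). In LECs Etv4 rose at least 5.97-fold, to 8.15 ± 0.80 in tumor mice against 5.35 ± 0.14 in naive mice, below background (SD, n = 3; limma, adjusted p = 0.0059). In DN cells Etv5 rose by 1.47 and Batf3 by 1.36, and Maff fell by 1.20 and Atf3 by 0.88 (limma, adjusted p between 0.0089 and 0.049).

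Of 22 cytokines and receptors known to induce MMPs, the interleukin receptor gene Il1r1 rose in FRCs by 1.32 (limma, adjusted p = 0.039), the cytokine receptor gene Lifr fell in BECs by 1.21 (limma, adjusted p = 0.023), Tgfb1, a cytokine of matrix production, rose in DN cells by 1.08 (limma, adjusted p = 0.023), and none passed in LECs. Of 16 tested matrix substrates, Col4a2 and Col4a1, the basement membrane collagen chains, rose in LECs by 1.16 and 0.94 (limma, adjusted p = 0.019 and 0.039), and none passed in the other cells.

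For each member the 3 genes with the highest correlation over the 24 replicates were taken, which is a likeness of pattern over 8 groups. Mmp13 was closest to Spock3 (0.98), Tectb (0.979) and Coch (0.971). Spock3, a secreted proteoglycan gene, averaged 8.26 ± 0.52 in tumor LECs and 9.39 ± 0.30 in naive LECs, and Coch, a secreted protein gene, 7.93 ± 0.78 in tumor LECs and 9.34 ± 0.48 in naive LECs (SD, n = 3). Their changes in LECs were -1.13 (adjusted p = 0.034) and -1.41 (adjusted p = 0.045), and that of Tectb was -0.90 (adjusted p = 0.11), by limma. In FRCs Spock3, Tectb and Coch changed by 0.49, 0.74 and 0.65, none past the test (limma, adjusted p = 0.24, 0.061 and 0.23). Mmp16 was closest to Abca6 (0.98), Asphd2 (0.979) and Steap3 (0.977), which fell in tumor FRCs by 1.45, 1.12 and 1.22 on the log2 scale (limma, adjusted p = 0.015, 0.027 and 0.0049). These genes were picked by the same values and are no independent evidence.

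Mmp3 and Mmp23 shared 2 of their 3 nearest genes, the adipogenesis gene Medag (0.981 and 0.985) and Pdgfra (0.98 and 0.978). The third was the matrix protein gene Fbln1 for Mmp3 (0.978) and the membrane skeleton gene Epb41l3 for Mmp23 (0.972). Mmp11 was closest to Pla1a (0.961), Mgst1 and Peg3 (0.924 each), Mmp14 to Pheta2 (0.956), Dbn1 (0.938) and Lacc1 (0.933), and Mmp17 to Lamp1 (0.932), Ntn3 (0.931) and Gdf10 (0.926). The members near background had weaker neighbors. These were Frzb (0.857), Saa1 (0.834) and Mblac1 (0.781) for Mmp10, Abcd3 (0.827), Pde4dip (0.803) and Tspan31 (0.786) for Mmp19, and Septin11 (0.803), Pip4k2b (0.782) and Tpm4 (0.768) for Mmp28.

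The genes that lie beside Mmp13, Mmp3 and Mmp10 on chromosome 9 were read in the same way. In the reference the order is Mmp13, Mmp12, Mmp1b, Mmp3, Mmp1a, Mmp10, Mmp8, Mmp27, Mmp20 and Mmp7. Mmp12, Mmp1b, Mmp8, Mmp20 and Mmp7 had no group mean above background, and Mmp27 was not analysed here. Mmp1a was above background in all 24 replicates, with group means up to 8.20 in naive DN cells, and did not pass the test between tumor and naive mice in any cell type.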

How the data were processed

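Stromal cells of LNs were profiled in 8 groups of 3 replicates on 48 strips of Illumina bead arrays. The authors deposited bead intensities for each strip (values of each bead's brightness, with a code in place of a probe name), and a table of log2 values of 45281 probes by 48 strips. How the authors corrected background and normalized the deposited log2 values is not given in the sources used here. The deposited log2 table had a median of 5.47, against 7.34 for the log2 of bead means, and 122 empty cells. Strip medians ranged from 5.38 to 5.64.

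Quantile normalization was applied to the log2 values of all strips, followed by the mean of the strips of each replicate. Probes were named through the platform's annotation, in which 34885 had 1 gene symbol, 18 had several and 10378 had none. Dim probes peaked at 4.97, with 0.20 as the robust SD below this peak. The filter retained 21784 probes that had 1 symbol and at least 1 group mean above 5.57, and a gene was represented by its brightest probe (13353 genes). One limma model of 8 group means was fitted to 24 replicates (16 residual and 3.19 prior degrees of freedom), with Benjamini-Hochberg adjustment over all genes. Single probes were fitted in the same way over all kept probes. For a group with no replicate above 5.57, folds were computed against that level and are lower bounds. Bead files served for 2 alternatives, with beads beyond 3 median absolute deviations removed, the normexp method with an offset of 50, and 44897 of 45160 complete probes linked to a bead code by their values over the strips. Member probes had 5 to 34 beads per strip. In a simulated comparison of tumor and naive FRCs over 13353 genes, 100 genes were changed by 1 and 100 by 2 on the log2 scale. The noise was normal, with the same SD in all groups for a gene. The fit recovered 53% of changes of 1 and 91% of changes of 2, and 7.1% of its calls were false. In the data 1381 genes were called in FRCs, so these rates need not carry over.

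Named genes were all 10 members, of each list the genes past the threshold (at most 4 a list and comparison, by smallest p), the 3 genes closest to each member by correlation, and the neighbors on chromosome 9. Members, lists and tests were chosen with earlier results of these data known. Naive and tumor samples of the same replicate number were checked for pairing by their deviations from group means. The correlation was above 0.1 in every pair in LECs (0.2, 0.22 and 0.15), but not in FRCs, BECs or DN cells. The main fit had no block for the replicate number in any cell type, LECs included. A fit with a replicate block in every cell type was run as an alternative, beside other normalizations, filters, strips, probes, tests and weights, and leaving out each replicate in turn. Tools were R 4.3.3, limma 3.58.1, the data.table package (version 1.17.8), Python 3.11.15, numpy 2.4.6, pandas 2.3.3, scikit-learn 1.9.0 and matplotlib 3.10.9.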

Additional observations from a re-analysis of the deposited data

Results flagged for a closer look

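The change of Mmp13 with lymphoma, read by its brightest probe, differed between FRCs and LECs, by the test of the difference itself. In FRCs the change was 0.71 and did not pass the test (limma, adjusted p = 0.13). In LECs it was -1.57 and passed (limma, adjusted p = 0.0095). The difference between these changes was 2.28 on the log2 scale (SE 0.41, limma interaction test, adjusted p = 0.0093). All 3 tumor FRC replicates lay above the naive ones and all 3 tumor LEC replicates lay below the naive ones. Over all genes, 39.1% did not overlap in FRCs and 20.4% in LECs, in either direction. The difference passed the threshold in 36 of 36 alternatives, with values from 1.07 to 2.47. Neither of the other Mmp13 probes passed this test on its own. Their FRC changes were 0.07 and 0.01 (limma, adjusted p = 0.9 and 0.98). Groups of 3 replicates were too small for a test of single outlying samples.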

How the results depend on the processing

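Of 40 alternatives, 24 left out 1 replicate each, and none turned the direction of a call. Leaving out 1 replicate gave 1 to 2 members called in FRCs, 0 to 2 in BECs, 0 to 1 in LECs and 0 to 2 in DN cells, 25 to 33 naive cell type calls (31 in the report) and 1 to 7 differences between responses (1 in the report). The mean of a gene's probes gave 2 calls in BECs (Mmp3, Mmp14). Strip 1 alone gave 2 in FRCs (Mmp10, Mmp16), as did the bead files without background correction (2) and with normexp (2), and strip 2 alone gave 0 in LECs (Mmp13 -1.49, adjusted p = 0.056 by limma). Array weights, whose fit stopped before it had converged, gave 4 in FRCs (Mmp10, Mmp13, Mmp14, Mmp16), 2 in BECs (Mmp14, Mmp17), 2 in DN cells (Mmp11, Mmp19) and 15 differences between responses. An unpaired t-test within each cell type, with Benjamini-Hochberg adjustment, gave 0 in FRCs and 0 in LECs. Unadjusted, it gave 4 in FRCs, 1 in BECs, 2 in LECs and 0 in DN cells, beside 29.8%, 16.5%, 12% and 8.83% of all genes. The cause of these shifts was not tested. Mmp13 in LECs passed in 35 of 39 alternatives (-1.75 to -0.80) and Mmp16 in FRCs in 38 of 39. The replicate block, as a check of the pairing, left the calls at 1 in FRCs, 0 in BECs, 1 in LECs, 0 in DN cells and 1 difference between responses (Mmp13 in LECs -1.57, limma adjusted p = 0.027), and it changed no call. Over all genes, calls in tumor against naive mice numbered 1381, 667, 120 and 968 in FRCs, BECs, LECs and DN cells. With array weights these were 5200, 3950, 530 and 2099, and with 1 replicate left out 482 to 1978, 183 to 1366, 11 to 187 and 312 to 2141.

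The number of arrays limits precision. Mmp10, Mmp19 and Mmp28 lay near background, where log2 differences are understated, and Mmp14 in FRCs held the brightest beads of the members, up to 96.3% of the brightest bead of the strip.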
